A study of Mus musculus with 14 samples.

Results

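Histone acetylation is set by acetyltransferases, removed by deacetylases and read by proteins with a bromodomain, and 39 genes of these 3 roles were followed in single mouse oocytes with and without the histone demethylase gene Kdm1a (also called Lsd1). The genes were chosen by name and not by their values, though with earlier results of these data known. They are 16 deacetylases and sirtuins (Hdac1 and Hdac2 are not among them), 13 acetyltransferases and p160 coactivators, and 10 bromodomain readers, out of 24064 genes in the count table. No count in any oocyte was found for 2 of them, Hdac5 and Hdac10. A further 6, Hdac7, Hdac11, Sirt2, Sirt5, Kat2b and Crebbp, had too few counts for the test, which left 31 tested members.

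Acetyl groups are placed on lysines of the histone tails by acetyltransferases, which take them from acetyl-CoA, and a tail so marked is loosened from DNA. Zinc-dependent deacetylases (the Hdac genes) and NAD-dependent sirtuins (the Sirt genes) take the groups off again, some of them in compartments other than the nucleus. Bromodomains bind acetylated lysines, so that their proteins bring transcription and chromatin complexes to marked sites. The growing oocyte stores transcripts for later use, and histones are widely deacetylated during meiotic maturation. How far transcripts of the genes followed here persist through maturation was not measured.

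The study asked what the maternal store of Kdm1a does, and sequenced cDNA amplified from single ovulated oocytes. The control group held 4 oocytes of genotype Lsd1/Kdm1a wt/wt from strain C57BL/6J, here wt1, wt3, wt4 and wt5, and 1 oocyte of genotype flox/flox from mixed B6;129 mice, here C3 or the f/f oocyte, whose floxed alleles were intact because no cre was present. The 5 Kdm1a mutant oocytes (mko/mko, mixed B6;129), here D1, D2, D3, D4 and D7, carried the same floxed allele and Zp3-cre, which is active only in growing oocytes and removes the first exon of Kdm1a. Strain and the series of library names both separate the wt/wt oocytes from all others, so their part in a difference between wt/wt and mutant oocytes cannot be told apart from that of the deletion, and only C3 shares the strain of the mutants.

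Total counts ran from 1375187 to 6928548 per oocyte. Levels are in CPM, counts scaled to one library size after adjustment by edgeR's TMM factors. The targeted gene Kdm1a was at 12.1 to 38.7 CPM in wt/wt oocytes, 149 in C3 and 0 to 4.99 in mutant oocytes, or -5.02 as a log2 fold change (SE 0.86, adjusted p = 0.0011, from the edgeR fit described below). Of 18 oocyte marker genes all had counts. Their sum was 22001 to 38397 CPM in wt/wt oocytes, 66914 in C3 and 69228 to 133174 in mutant oocytes, and 13 were called higher in the mutants. Cumulus and granulosa cell markers, from the cells around the oocyte, summed to 10.3 to 15.5, 1.78 and 2.59 to 7.98 CPM in the same order, and 8 of these 17 markers, Fshr, Amh and Foxl2 among them, had no count. The part of these marker differences in the results below was not tested. In bulk RNA of 1 cell, a level is a share of that cell's own transcripts, so less of a transcript and more of the others cannot be told apart.

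In wt/wt oocytes the listed readers and writers were, as sums, far more abundant than the 16 listed erasers, which leave out Hdac1 and Hdac2. Levels between genes were compared per kb of exon, as mean ± SD over the 4 oocytes. Brdt, the BET reader known from male germ cells, was the highest member at 119 ± 21.4 CPM per kb. It was followed by Brd7, a subunit of SWI/SNF remodelling complexes, at 70.4 ± 2.63 CPM per kb. Hat1, which acetylates newly made histone H4, was at 59.2 ± 8.14, Kat7, the acetyltransferase of the HBO1 complex, at 51.9 ± 18 and Brd1, a scaffold of MYST acetyltransferase complexes, at 47.4 ± 9.01 CPM per kb. The nuclear receptor coactivators Ncoa3 and Ncoa2 came next at 28.8 ± 6.05 and 15.7 ± 1.04 CPM per kb. Among these 7, Brdt lay above Brd7 in every oocyte and Ncoa3 above Ncoa2, while the levels from Brd7 to Ncoa3 overlapped from each gene to the next. Ncoa2 lay above Brd8 (8.13 ± 1.91 CPM per kb), and below it every gene overlapped with the next in the order. Sirt1, the highest of the 16 listed erasers, was at 3.41 ± 3.16 CPM per kb. Hdac2, outside the list, had a higher wt/wt mean (20.5 CPM, against 18.2 for Sirt1) over a shorter exon length (4474 against 5331 bases). The amplified cDNA reaches only about 3 kb from the 3′ end. With exon lengths capped at 3 kb, Brdt stayed first at 204 CPM per kb, Brd1 came directly after it at 133 and Hat1 came after Ncoa3 at 59.2, and Ncoa2 and Ncoa3 changed places at 81.9 ± 5.43 and 75.7 ± 15.9 with overlapping oocytes, so the order of these 2 genes depends on the length used.

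**Figure D1:**
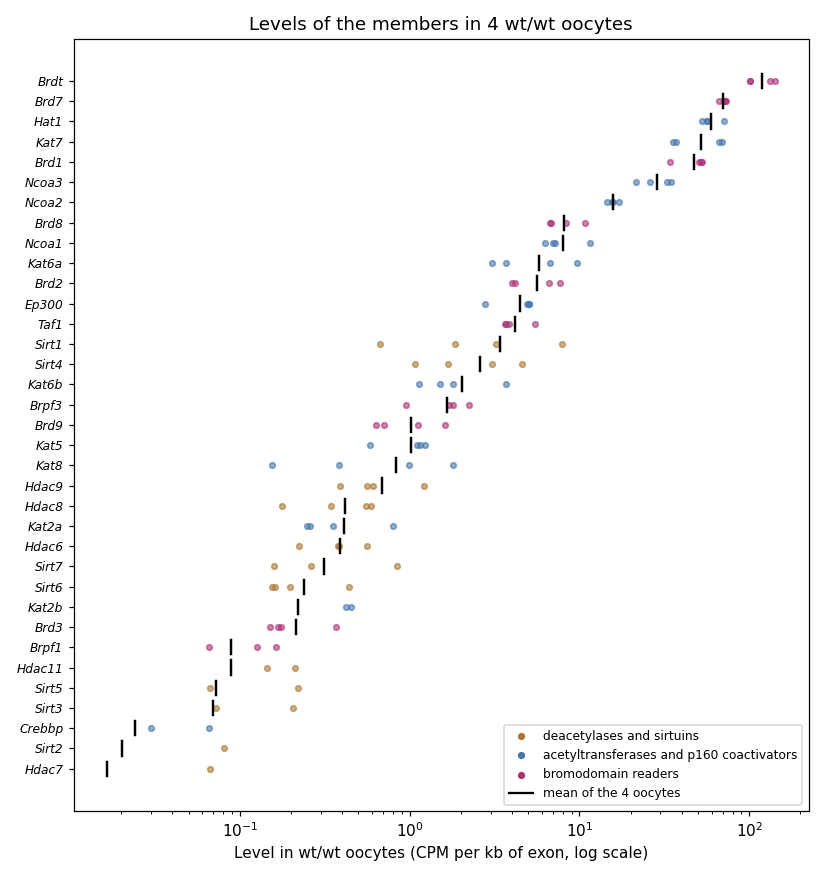
Level of each member in the 4 wt/wt oocytes, in CPM per kb of exon on a log scale, with 1 point per oocyte, a black bar at the mean, and colours for the 3 roles. Oocytes at 0 cannot be drawn on this axis and are left out, as are the members at 0 in all 4 oocytes. Brdt stands at the top at 119 CPM per kb, and the deacetylases and sirtuins fill the lower part of the order.

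The question of the main comparison was which of these genes differed between 5 mutant and 5 control oocytes. Calls required an adjusted p under 0.05 (the quasi-likelihood test of edgeR, adjusted by Benjamini-Hochberg over all genes tested) and an absolute log2 fold change of 1 or more. Of the 31 tested members 10 were called, or 32.3%, where 25.9% of all 9198 genes tested were called. Only Hdac3 and Sirt4 were higher in mutant oocytes (6.45% of tested members, against 14.7% of all genes). Lower were 8 members, Hat1, Kat7, Ep300, Ncoa2, Brdt, Brd1, Brd8 and Taf1 (25.8%, against 11.2% of all genes). Mutant and control oocytes did not overlap in 9 members (29.0%, against 16.2% of all genes), 3 of them higher in the mutants and 6 lower. The median log2 fold change was -0.23 over the tested members and 0.17 over all genes.

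By role, 2 of 10 tested erasers were called higher. The lowest total of a gene in the test was 35 counts, and Hdac3, 1 of these 2, reached it only through the mutants, in which it was high, so no share is read for the erasers. Among the other roles, 4 of 11 writers or coactivators (36.4%) and 4 of 10 readers (40%) were called lower (against 11.2% of all genes). Without C3 and under limma, the writer Kat2a, the reader Brpf1 and the eraser Hdac4 were called higher as well, and Brd8 was no longer called. Without C3 Brdt missed the call too, which leaves 2 readers called lower. Its log2 fold change was then -0.97 (adjusted p = 0.0255, edgeR), so that only the cut on fold change was missed. The 2 higher members were low in wt/wt oocytes, though Sirt4 was at 34.6 CPM in C3, and the 8 lower members were all higher in wt/wt oocytes than these 2. This pattern is partly fixed in advance, because a gene near 0 in controls can hardly be called lower. Over all genes, 6.81% of those with a mean of 20 CPM or less were called lower, against 17.4% of the others. No conclusion is drawn from it.

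Scaling matters for the balance between the directions. Of all called genes 56.8% were higher in the mutants under TMM, 36.6% under library totals alone and 41.7% with GC and length trends removed, and library totals moved the all-gene median by -0.39 on the log2 scale. Under library totals Kat6a, Ncoa3 and Brd7 were called lower as well, and the 10 calls above were kept with their directions.

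**Figure D2:**
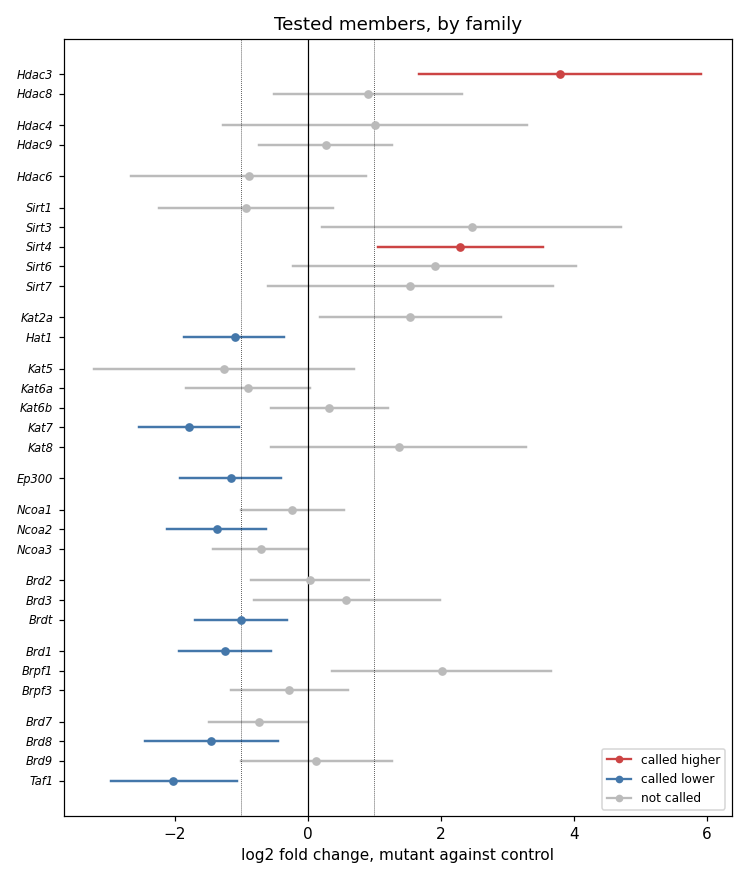
Log2 fold change between mutant and control oocytes for the 31 tested members, grouped by family, as points with 95% confidence intervals. Red marks members called higher, blue those called lower and grey those not called, and dotted lines stand at -1 and 1. Hdac3 at 3.79 and Sirt4 at 2.29 are on the right, and Taf1 at -2.02 is farthest to the left of the called members.

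Levels were also summed over the members of each role in every oocyte. The 16 deacetylases and sirtuins summed to 75.7, 35.4, 33.9 and 25.1 CPM in wt1, wt3, wt4 and wt5, to 142 in C3 and to 103, 99.3, 122, 114 and 130 in D1, D2, D3, D4 and D7. The f/f oocyte was thus the highest, and every mutant oocyte lay above every wt/wt oocyte. Much of the gap came from Sirt4 alone, whose mean was 6.26 CPM in wt/wt and 59.7 in mutant oocytes. The 13 acetyltransferases and coactivators summed to 1037, 1249, 1356 and 992 CPM in wt/wt oocytes, 943 in C3 and 522, 479, 661, 494 and 627 in mutant oocytes. Here the mutants were below all controls, with C3 nearest to them. For the 10 readers the sums were 1331, 1672, 1682 and 1591 CPM in wt/wt oocytes, 2132 in C3 and 619, 891, 959, 662 and 1215 in mutant oocytes. C3 was the highest oocyte again and the mutants the lowest. Scaled by total counts alone, without TMM, the wt/wt and mutant sums of the erasers overlapped (34.3 to 99.6 in wt/wt, 92.1 in C3 and 80.1 to 122 in mutant oocytes), while mutants stayed lowest for the writers (390 to 589, against 613 in C3 and 1355 to 1759 in wt/wt) and for the readers (481 to 1141, against 1387 in C3 and 1751 to 2235 in wt/wt).

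**Figure D3:**
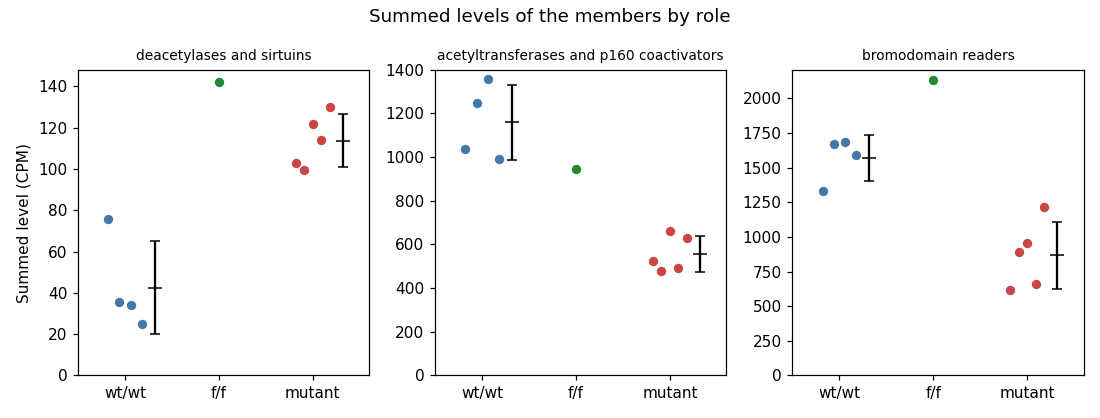
Summed level of the members of each role per oocyte, in CPM, with 1 point per oocyte and bars at the mean and SD of the 4 wt/wt and 5 mutant oocytes. The 5 mutant oocytes sit at 99.3 to 130 CPM for the erasers, 479 to 661 for the writers and coactivators and 619 to 1215 for the readers.

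Of the lower members 4 are shown here with the DNA upstream of their starts. Their levels fell in mutant oocytes with no overlap between the groups, and the stretch shown holds no base of an annotated exon of the gene. Ep300 and Ncoa2 also fell without overlap. The stretch of Ep300 lies within annotated exons (200 exonic bases), and none is shown for Ncoa2. The stretches run from 250 to 51 bases before the start of the RefSeq transcript in build GRCm38.p6, 200 bases each, on the strand of the gene. They are, from RefSeq, Kat7 at chr11:95310297-95310496 (minus strand), Brd1 at chr15:88734270-88734469 (minus), Brdt at chr5:107330944-107331143 (plus) and Taf1 at chrX:101532485-101532684 (plus). Capitals mark matches, on either strand, to CCAAT (the letters bound by NF-Y), GGGCGG (a GC box), CACGTG (an E-box) and the searched but unmatched TATAAA and TAATTG.
Kat7: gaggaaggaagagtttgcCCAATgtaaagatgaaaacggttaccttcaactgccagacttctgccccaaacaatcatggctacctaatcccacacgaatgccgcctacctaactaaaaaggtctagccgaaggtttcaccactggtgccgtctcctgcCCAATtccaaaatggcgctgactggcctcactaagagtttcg
Brd1: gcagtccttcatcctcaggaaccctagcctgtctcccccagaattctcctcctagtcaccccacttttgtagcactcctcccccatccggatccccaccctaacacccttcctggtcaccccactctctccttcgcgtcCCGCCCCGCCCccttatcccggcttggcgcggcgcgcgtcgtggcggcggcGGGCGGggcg
Brdt: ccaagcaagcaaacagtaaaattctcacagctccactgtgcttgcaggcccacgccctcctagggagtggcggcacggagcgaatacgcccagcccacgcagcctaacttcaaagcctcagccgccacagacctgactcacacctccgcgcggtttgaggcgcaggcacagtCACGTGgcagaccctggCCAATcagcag
Taf1: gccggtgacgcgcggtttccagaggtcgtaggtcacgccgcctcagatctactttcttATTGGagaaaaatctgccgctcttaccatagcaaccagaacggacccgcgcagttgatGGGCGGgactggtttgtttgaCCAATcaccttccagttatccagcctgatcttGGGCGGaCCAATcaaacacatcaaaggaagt
The CCAAT letters occurred 2 times in the Kat7 stretch, once in that of Brdt and 3 times in that of Taf1. The GC box occurred 3 times upstream of Brd1, with 2 of the matches overlapping on the other strand, and 2 times upstream of Taf1. The E-box was found once, upstream of Brdt. Among 32851 RefSeq promoters cut to the same 200 bases, 28.4% held CCAAT, 24.6% GGGCGG, 4.34% CACGTG, 9.14% TATAAA and 6.11% TAATTG. Of 46 promoters found for 33 members, 16 held CCAAT, 25 GGGCGG, 4 CACGTG, 1 TATAAA and 4 TAATTG. CpG pairs numbered 7 in the Kat7 stretch, 17 in that of Brd1, 12 in that of Brdt and 13 in that of Taf1, with a median of 4 over all promoters (quartiles 2 and 11). These matches describe the letters and do not show that a factor bound there.

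Among the deacetylases, Hdac3, the catalytic subunit of a nuclear receptor corepressor complex, was called higher in mutant oocytes from very low counts. It had 0 counts in each of the 4 wt/wt oocytes, 4 in C3, and 8, 7, 5, 18 and 14 in D1, D2, D3, D4 and D7. In CPM these were 0 in all wt/wt oocytes, 0.888 in C3 and 4.39, 4.26, 1.78, 2.74 and 6.98 in the mutants. The groups were separate, and the mutant mean of 4.03 CPM was at least 2.92-fold higher than the 1.38 CPM that 3 counts stand for in a wt/wt oocyte. The fitted log2 fold change was 3.79 (SE 1.0, adjusted p = 0.0128 by edgeR's quasi-likelihood test), a value that depends on how zeros are treated and was 6.42 without C3. Mutant oocytes held 52 of its 56 counts, so its test is no independent support for the direction, and under the stricter filterByExpr it was not tested.

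The other zinc-dependent deacetylases were low and not called. Hdac8, the other class I enzyme listed, was at 1.66, 0.863, 2.86 and 2.69 CPM in wt/wt oocytes, 2.44 in C3 and 2.19, 3.05, 2.49, 3.50 and 8.97 in mutants. The groups overlapped, with D7 alone high, and the interval of the log2 fold change ran from -0.50 to 2.32. Hdac8 had 29 counts in controls and 57 in mutants, so it entered the test only through the mutants. Hdac9, a class IIa enzyme with weak activity of its own, was at 17.7, 8.20, 5.72 and 8.97 CPM in wt/wt oocytes, 9.99 in C3 and 8.78, 14, 18.2, 12.5 and 6.98 in mutants. Here too all groups overlapped, and the log2 fold change of 0.27 had an interval of -0.73 to 1.26. Hdac6, a mostly cytoplasmic enzyme that acts on tubulin, was at 2.21, 1.29, 3.27 and 2.24 CPM in wt/wt oocytes, 4.44 in C3 and 2.74, 1.22, 0.356, 2.74 and 0 in mutants, again with overlap (interval -2.66 to 0.88). Hdac4, the other class IIa gene tested, was at 0 in all 4 wt/wt oocytes, at 8.44 CPM in C3 and at 2.13 to 4.94 CPM in mutants. Its mutant mean was at least 2.83-fold higher than 3 counts in a wt/wt oocyte, but C3 exceeded every mutant. It was called by edgeR without C3 and by limma voom with sample quality weights, and in none of the other alternatives. An opposite-strand noncoding gene, Gm26720, shares 3536 exonic bases with Hdac4, and whether the counting used strand is not given in the sources used here. With all oocytes, 0 of the 2 class IIa genes tested were called by edgeR (0 at an unadjusted p under 0.05) and 1, Hdac4, by limma, while DESeq2 gave no p for Hdac4 and did not call Hdac9. Hdac11, the class IV enzyme, was under the filter at 0 to 0.818 CPM in wt/wt oocytes, 0 in C3 and 0 to 1.98 in mutants.

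Of the 5 sirtuins tested, Sirt4, a mitochondrial sirtuin that limits glutamate dehydrogenase, was the only one called. It was at 11.1, 2.59, 7.36 and 4.04 CPM in wt/wt oocytes, 34.6 in C3 and 35.6, 45.1, 76.9, 50.8 and 90.2 in mutants. Every mutant lay above every control, but C3 lay just under D1 and well above the wt/wt oocytes. The log2 fold change was 2.29 (SE 0.59, adjusted p = 0.0109, edgeR), and without C3 it was 3.26. Against C3 alone, with the spread of the mutants assumed for it, the log2 fold change was 0.81 (adjusted p = 0.56).

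Sirt1, the nuclear sirtuin that deacetylates histones and p53, varied more among the wt/wt oocytes than any other of the 16 members with a mean over 20 CPM. Its levels were 42.0, 17.3, 9.81 and 3.59 CPM in wt/wt oocytes, 78.8 in C3 and 17.6, 20.1, 12.5, 20.7 and 8.97 in mutants. The mutants lay inside the wt/wt range and C3 was highest, and the log2 fold change was -0.93 with an interval of -2.24 to 0.38 (-0.15 without C3). Sirt3, a mitochondrial deacetylase, and the nuclear Sirt6 and Sirt7 were at 0.456 to 8.78, 0 to 8.78 and 0 to 10 CPM in mutants, and their groups overlapped, with fitted log2 fold changes of 2.46, 1.91 and 1.54 (adjusted p = 0.0953, 0.170 and 0.273, edgeR). Over the 10 oocytes these genes had 38, 39 and 105 counts, and Sirt3 and Sirt7 share exonic bases with the neighbouring genes Psmd13 and Mafg, so their values are uncertain. Of the counts of Sirt3, Sirt6 and Sirt7, controls held 7, 9 and 18 and mutants 31, 30 and 87. Each thus entered the test only through the mutants, and its fitted direction is no independent support for a rise.

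Among the acetyltransferases, Kat7 had the smallest p of all members. The gene lies at chr11:95274259-95310246 (GRCm38, minus strand). It was at 204, 366, 381 and 197 CPM in wt/wt oocytes, 183 in C3 and 54.3, 104, 91.5, 65.7 and 72.3 in mutants. Both groups were wide but separate, and C3 was the lowest control. Mutant levels were 3.44-fold lower (log2 fold change -1.78, SE 0.35, adjusted p = 0.00258, edgeR), and the call was kept whichever oocyte was left out. The 4 other MYST enzymes were not called. Kat6a (MOZ) ranged over 28.2 to 88.3 CPM in controls and 14.2 to 44.4 in mutants, with a log2 fold change of -0.90 (interval -1.83 to 0.04). Kat6b (MORF), its close relative, was at 19.0 to 61.9 and 20.4 to 63.6 CPM, with a log2 fold change of 0.32 (interval -0.56 to 1.20). Kat5 (TIP60) and Kat8 (MOF), which acetylate histone H4, were at 0.666 to 4.32 and 0.449 to 5.18 CPM in controls, too low for a narrow interval (-3.21 to 0.69 and -0.55 to 3.28). Kat8 had 25 counts in controls and 102 in mutants, so it entered the test only through the mutants.

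Hat1, at chr2:71388958-71441622 (plus strand), was the only called member for which the f/f oocyte lay in the range of the mutants. Its levels were 205, 151, 163 and 164 CPM in wt/wt oocytes, 69.0 in C3 and 62.0, 78.0, 69.8, 94.8 and 44.9 in mutants. All wt/wt oocytes were above all mutants, and C3 lay in the middle of the mutants. The test against all controls gave a log2 fold change of -1.10 (SE 0.36, adjusted p = 0.0324, edgeR), and this call was lost on leaving out any wt/wt oocyte, D1, D3 or D7. Against C3 alone the log2 fold change was 0.04 (adjusted p = 0.98). Kat2a (GCN5), the catalytic subunit of SAGA and ATAC, was at 0.863 to 2.76 CPM in wt/wt oocytes, 5.33 in C3 and 4.49 to 10.4 in mutants, so that C3 lay among the mutants here too, with a log2 fold change of 1.54 that was not called (adjusted p = 0.0872) and was called without C3 (2.26, adjusted p = 0.0202, edgeR), by limma and on counts thinned to 1 depth.

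Ep300, the coactivator acetyltransferase p300 (chr15:81585351-81652077, plus strand), was at 39.8, 72.5, 69.9 and 71.8 CPM in wt/wt oocytes, 39.7 in C3 and 19.2, 17.7, 31.7, 32.5 and 29.4 in mutants. The groups were separate, but wt1 and C3 stood close to the highest mutants. Levels were 2.24-fold lower in mutants (log2 fold change -1.16, SE 0.36, adjusted p = 0.027, edgeR), and the call was lost without wt3, wt4, D1 or D2. Its paralogue Crebbp (CBP) was barely counted, at 0 to 3.77 CPM in all 10 oocytes, so that most p300 or CBP transcript counted here was Ep300.

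The p160 coactivators bind nuclear receptors and bring in p300. Ncoa2 (chr1:13139105-13374083, minus strand) was at 266, 246, 244 and 227 CPM in wt/wt oocytes, 195 in C3 and 62.5, 65.2, 162, 63.6 and 102 in mutants. The controls lay close together and above all mutants, of which D3 stood highest. The log2 fold change was -1.37 (SE 0.35, adjusted p = 0.0106, edgeR), or 2.59-fold lower, and it was called whichever oocyte was left out. Ncoa3 was at 204, 261, 272 and 171 CPM in wt/wt oocytes, 303 in C3 and 143, 76.2, 179, 137 and 205 in mutants. D3 and D7 reached the range of the controls, and the log2 fold change of -0.71 (interval -1.43 to 0.00) was not called. Ncoa1 overlapped throughout, at 53.6 to 98.5 CPM in controls and 32.3 to 102 in mutants (log2 fold change -0.23, interval -1.0 to 0.54).

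Of the BET readers, which couple acetylated histones to transcription elongation, Brdt (chr5:107331159-107387058, plus strand) was at 517, 681, 728 and 518 CPM in wt/wt oocytes, 646 in C3 and 192, 320, 360, 228 and 442 in mutants. All controls were above all mutants, and C3 was inside the wt/wt range. Mutant levels were lower by a log2 fold change of -1.0 (SE 0.33, adjusted p = 0.033, edgeR), which is the size the call asks for, and the call was lost on leaving out any of 5 oocytes (wt3, wt4, C3, D1 or D4) and kept in 10 of 22 alternative settings. Brd2 was at 31.5 to 60.2 CPM in wt/wt oocytes, 145 in C3 and 54.6 to 88.3 in mutants, with a log2 fold change of 0.03 (interval -0.86 to 0.92), and Brd3 was at 1.11 to 4.66 CPM in controls and 1.99 to 4.39 in mutants.

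Brd1, Brpf1 and Brpf3 are scaffolds that hold the MYST acetyltransferases in their complexes. Brd1 (chr15:88687034-88734233, minus strand) was at 286, 439, 424 and 445 CPM in wt/wt oocytes, 573 in C3 and 209, 119, 200, 139 and 246 in mutants. The groups were separate, with wt1 the lowest control and C3 the highest oocyte, and the log2 fold change was -1.25 (SE 0.33, adjusted p = 0.0129, edgeR), kept with each oocyte left out. Brpf1 was low and separate the other way, at 0 to 1.11 CPM in wt/wt oocytes, 3.55 in C3 and 3.84 to 7.48 in mutants. It was not called (log2 fold change 2.01, adjusted p = 0.0646, edgeR). Brpf1 had 21 counts in controls and 76 in mutants, so it too entered the test only through the mutants, and its calls below and its place among the members without overlap rest on that. It was called without C3 (3.10, adjusted p = 0.0112), by DESeq2 (2.07, adjusted p = 0.0302), by limma (2.86, adjusted p = 0.00431) and with libraries taken separately in edgeR (1.69, adjusted p = 0.0429). Brpf3 overlapped, at 8.29 to 19.3 CPM in controls and 8.78 to 13.1 in mutants (interval -1.16 to 0.60).

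Among readers of other complexes, Taf1, the largest subunit of the general transcription factor TFIID (chrX:101532734-101601789, plus strand), had the largest fall of the called members. It was at 31.5, 31.1, 33.1 and 46.7 CPM in wt/wt oocytes, 18.2 in C3 and 7.13, 7.31, 11.0, 3.35 and 11.0 in mutants. The groups were separate, with C3 between the wt/wt and mutant ranges. Levels were 4.05-fold lower (log2 fold change -2.02, SE 0.45, adjusted p = 0.00499, edgeR), and the call was kept with each oocyte left out. Brd8, a subunit of the NuA4 (TIP60) complex, was at 71.8, 88.5, 71.2 and 114 CPM in wt/wt oocytes, 292 in C3 and 31.8, 95.6, 33.1, 29.5 and 44.9 in mutants. D2 lay within the wt/wt range and C3 far above it. The log2 fold change of -1.45 (SE 0.47, adjusted p = 0.0334, edgeR) rested on C3, and without it the value was -0.86 (adjusted p = 0.118). The 2 libraries of C3 differed more in Brd8, by 1.09 on the log2 scale, than in any other of the 16 better expressed members.

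Brd7 showed how far single mutants could differ. It was at 349, 375, 373 and 380 CPM in wt/wt oocytes, 423 in C3 and 101, 231, 259, 167 and 379 in mutants. The controls were tight, D1 was lowest and D7 was level with the wt/wt oocytes, and the log2 fold change of -0.74 (interval -1.49 to 0.00) was not called. Brd9, a subunit of a noncanonical SWI/SNF complex, overlapped at 4.42 to 14.9 CPM in controls and 5.70 to 19.9 in mutants. Over the 16 members above 20 CPM, a level chosen after the values were seen, D7 was the highest mutant in 6 and D1 the lowest in 5, and the median absolute difference between 2 mutants was 0.59 on the log2 scale. It was 0.42 between wt/wt oocytes and 0.24 to 0.38 between the 2 libraries summed for C3, D3, D4 or D7.

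**Figure D4:**
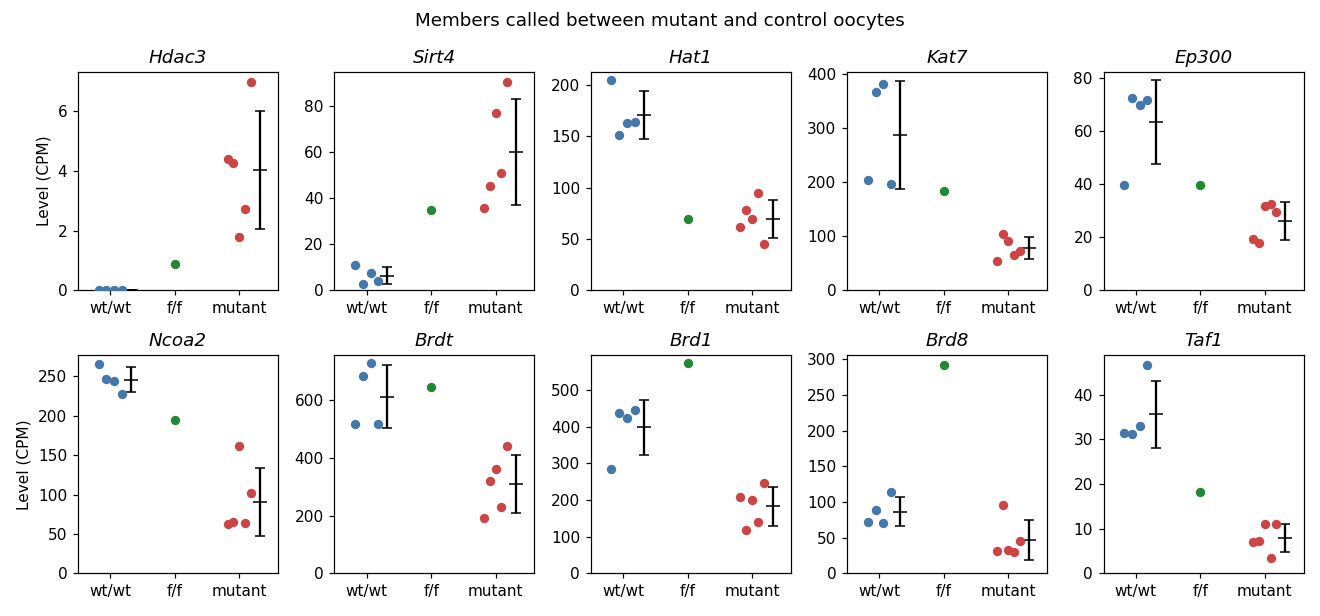
Level in CPM of each of the 10 called members in every oocyte, on linear axes from 0, with bars at the mean and SD of the 4 wt/wt and 5 mutant oocytes. Hdac3 and Sirt4 are high in the mutants and the other 8 are low, and the f/f point lies among the mutants for Hat1, far above all others for Brd8 and inside the wt/wt range for Brdt.

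The f/f oocyte is the only control of the strain of the mutants, and its place differed from gene to gene. Over the 31 tested members it lay in both ranges in 10, above both in 9, between them in 7, in the mutant range in 4 and in the wt/wt range in 1. The calls were made with C3 as 1 of the 5 controls, so its place in called members is not independent of them. For 6 of the 10 called members (Hdac3, Sirt4, Kat7, Ep300, Ncoa2 and Taf1) it lay between the wt/wt and mutant ranges, for Brd1 and Brd8 above both, for Brdt within the wt/wt range and for Hat1 within the mutant range. These places hold under TMM, whose factor was 0.651 for C3 and 1.3 to 1.37 for wt/wt oocytes. They can change with the scaling. By total counts alone, the reader sum of C3 (1387) lay below every wt/wt sum (1751 to 2235), and under TMM above them. Taken as the only control, C3 gave no member called by edgeR of 31 tested (3 at an unadjusted p under 0.05), in a fit that assumes for C3 the spread of the mutant oocytes. Mutant means were lower than C3 by 1.24 on the log2 scale for Kat7, and the log2 ratios of mutant to C3 were -1.07 for Brdt, -1.65 for Brd1, -1.19 for Taf1, -1.10 for Ncoa2, -0.61 for Ep300, -2.64 for Brd8 and 0.02 for Hat1.

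The other subunits of the complexes in which these enzymes work were examined beside other bromodomain genes, Hdac1 and Hdac2, and genes of acetyl-CoA and NAD supply, 108 genes in all. Of these 88 were tested and 26 called, 11 higher and 15 lower. The share called was 29.5%, near the 25.9% of all genes tested, and the median log2 fold change was -0.09. Of 16 SAGA and ATAC genes tested, 4 were called higher and 2 lower (25% and 12.5%, against 14.7% and 11.2% of all genes). Tada1, a SAGA core subunit, was at 308, 362, 300 and 276 CPM in wt/wt oocytes, 146 in C3 and 42.8, 34.1, 99.0, 64.2 and 44.9 in mutants, separate and lower (log2 fold change -2.28, SE 0.39, adjusted p = 0.00104, edgeR). Mbip, an ATAC subunit, was at 0 in all wt/wt oocytes, 0.666 CPM in C3 and 13.7, 4.87, 3.56, 54.5 and 1.5 CPM in mutants, a mutant mean at least 12.6-fold higher than 3 counts in a control oocyte. D4 stood far above the rest, and without it the mean was at least 4.78-fold higher.

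In NuA4, 2 of the 13 genes in the test rose and 2 fell (15.4% each, near the shares of all genes). Trrap, the large scaffold of both NuA4 and SAGA, was at 0, 0, 0 and 0.449 CPM in wt/wt oocytes, 3.55 in C3 and 21.9, 14.6, 4.99, 7.45 and 5.98 in mutants (log2 fold change 3.43, SE 0.92, adjusted p = 0.0137, edgeR). All mutants exceeded all controls, at low levels, and with nearly all wt/wt oocytes at 0 the value was 6.12 without C3. Trrap had 17 counts in controls and 139 in mutants, so that it entered the test only through the group in which it was high, as did Mbip with 3 and 404 counts. Mbtd1, a reader of methylated histone H4 in the same complex, was at 922, 801, 774 and 839 CPM in wt/wt oocytes, 3788 in C3 and 187, 445, 562, 227 and 705 in mutants. The groups were separate, but the log2 fold change of -1.74 (SE 0.52, adjusted p = 0.0228, edgeR) was -0.97 without C3 and no longer called (adjusted p = 0.0537).

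Of 3 tested partners of MOZ, MORF and HBO1, Ing5, which reads methylated H3 for Kat7, was at 55.8, 85.9, 55.2 and 109 CPM in wt/wt oocytes, 52.8 in C3 and 18.6, 31.7, 37.0, 8.52 and 27.4 in mutants. It was thus lower along with Kat7 and Brd1 (log2 fold change -1.55, SE 0.42, adjusted p = 0.0145, edgeR). The partner Jade2 was called higher (33.3% of the list each way, or 1 gene, against 14.7% of all genes higher and 11.2% lower). Of 9 partners of Kat8, Msl2, the ubiquitin ligase of the MSL complex, was at 63.6, 86.3, 75.2 and 46.7 CPM in wt/wt oocytes, 57.9 in C3 and 15.4, 10.4, 18.9, 7.91 and 7.48 in mutants, the largest fall of its list (log2 fold change -2.46, SE 0.39, adjusted p = 0.000717, edgeR), and Phf20 was the other gene called lower (22.2% of the list, against 11.2% of all genes).

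On the eraser side, of 13 Sin3 corepressor genes 1 was called higher and 2 lower (23.1% in all, against 25.9% of all genes). Brms1l was the largest fall of these, at 23.2, 34.1, 54.0 and 44.4 CPM in wt/wt oocytes, 20 in C3 and 6.58, 12.2, 13.5, 6.39 and 10.5 in mutants (log2 fold change -1.84, SE 0.43, adjusted p = 0.00663, edgeR). Hdac1 and Hdac2, the deacetylases of that complex, were not called (log2 fold changes -0.52 and 1.31, adjusted p = 0.643 and 0.072, edgeR), although Hdac2 had an unadjusted p under 0.05, was called by DESeq2 and limma, and was called by edgeR without C3 (2.02, adjusted p = 0.0035).

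Among the 21 other bromodomain genes in the test, 2 rose and 4 fell (28.6% in all, near the 25.9% of all genes). Smarca2, an ATPase of SWI/SNF, was at 9.95, 14.7, 13.9 and 11.2 CPM in wt/wt oocytes, 12.4 in C3 and 80.1, 53.0, 90.8, 239 and 18.4 in mutants, all above all controls (log2 fold change 2.95, SE 0.54, adjusted p = 0.00161, edgeR, or 2.29 without D4). Cecr2, a reader in a chromatin remodelling complex, was at 726, 690.0, 852 and 625 CPM in wt/wt oocytes, 737 in C3 and 150.0, 191, 306, 146 and 413 in mutants. The controls lay above all mutants, C3 among the wt/wt oocytes (log2 fold change -1.59, SE 0.36, adjusted p = 0.00546, edgeR). Of 8 tested genes of acetyl-CoA and NAD supply 2 were called lower (25%, against 11.2% of all genes). Acly, which makes cytosolic acetyl-CoA from citrate, was at 37.0, 68.2, 28.2 and 51.1 CPM in wt/wt oocytes, 25.8 in C3 and 8.23, 14, 23.1, 7.15 and 7.98 in mutants (log2 fold change -1.79, SE 0.45, adjusted p = 0.00989, edgeR), and the groups did not overlap.

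**Figure D5:**
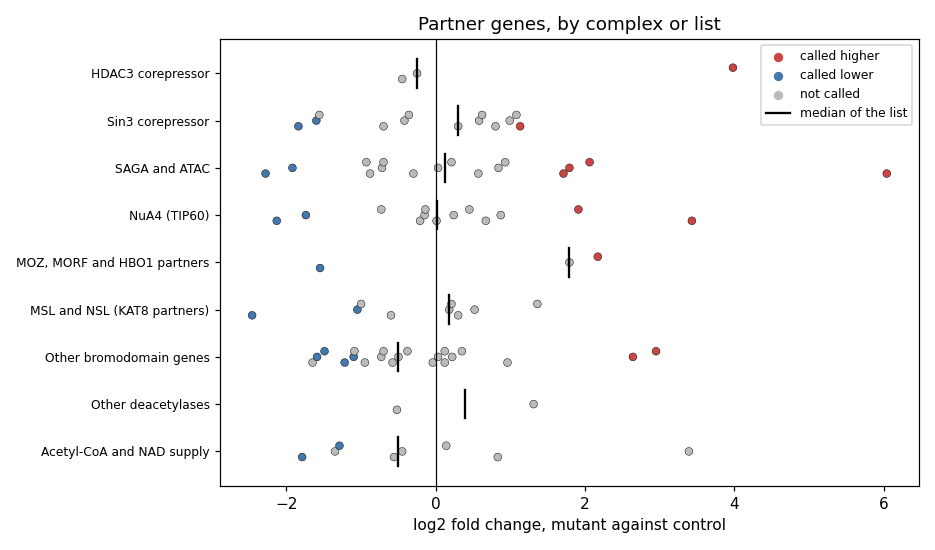
Log2 fold change between mutant and control oocytes for the 88 tested partner genes by complex or list, 1 point per gene, with black bars at the median of each list. Red points were called higher, blue ones lower and grey ones not called. Most lists hold points of both colours, and the gene farthest to the right, Mbip, had 3 counts or fewer in every control oocyte, so that its position depends on how zeros are treated.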

How the data were processed

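Single ovulated oocytes were sequenced as poly(A)-primed, amplified cDNA. The authors deposited counts for RefSeq genes, made by filtering reads, aligning them to mm10 with TopHat2 2.0.6, keeping unique best alignments and counting with HTSeq, without normalization. The version of HTSeq differs between the sources (0.5.3p9 per the labels). Whether the counting used strand is not given in the sources used here. The labels' processing notes also name R 3.2.0 and DESeq2 1.4.5. The table held 24064 genes and 14 libraries, and 0 columns were left unassigned. Libraries sharing an oocyte name (C3, D3, D4, D7) were summed to 10 oocytes. The labels number them as separate oocytes, so an alternative took each library separately. Two-cell embryos were not analysed here. Nothing says which oocytes came from separate females, so p-values measure the spread between oocytes, which may share an animal.

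Genes without a count were removed (15432 remained), the top 60% by total count (9198) were kept, and the 5 mutant and 5 control oocytes were tested with edgeR 4.0.16 in R 4.3.3 (TMM, glmQLFit, glmQLFTest, Benjamini-Hochberg). The call rule was an adjusted p below 0.05 with an absolute log2 fold change no smaller than 1. The biological coefficient of variation was 0.609. Gene positions came from GENCODE for GRCm38, matched by name for 22829 genes (94.9%). Intervals are 95% confidence intervals of the fit. A count of 0 allows up to 3 counts, which stand for 0.456 to 1.83 CPM per oocyte, for counting error only. The code was tested on simulated data.

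The members and lists were chosen with earlier results of these data known. Named in full were each called member, the member with the highest wt/wt level per kb in each family and, in each partner list, the called gene with the largest fold change in each direction among those whose groups did not overlap. Some items are not reported here. Other members and Hdac1, Hdac2, Jade2 and Phf20 were added after their values were seen. Alternatives were DESeq2 1.42.0, limma 3.58.1 voom with sample quality weights, DESeq2 size factors, library totals, no filter, filterByExpr, an adjusted p alone, each library taken separately (also with a replicate block), 1 library per oocyte, C3 alone as control, counts thinned to 1375187, GC and length trends removed, and each oocyte left out. Summed levels scaled by total counts were added after the data were seen.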

Additional observations from a re-analysis of the deposited data

Results flagged for a closer look

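In sets of 4 or 5 oocytes of a group, a member was marked where the highest or lowest oocyte stood apart from the others by a gap larger, relative to the whole range, than Dixon's 95% critical value. For normal values from 1 population, chance marks about 1 in 20 sets, or 2.4 of the 48 examined, and 8 were marked. The wt/wt oocytes are also part of the control sets, which mix 2 strains. The sets are thus not independent, and no excess over chance is read from these numbers. The gap is given as a share of the range.

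The f/f oocyte C3 stood above the 4 wt/wt oocytes for Sirt4 (34.6 CPM against 11.1 in the next, 0.736) and for Brd8 (292 CPM against 114, 0.804). Hdac3 was marked only because all wt/wt oocytes were at 0, which fixes the share at 1.0, and the 0.888 CPM of C3 is below the 1.22 to 1.66 CPM that 3 counts stand for in a wt/wt oocyte, so no difference was detectable at this depth. Oocyte wt1 was the lowest wt/wt oocyte for Ep300 (39.8 CPM against 69.9, 0.921) and for Brd1 (286 CPM against 424, 0.866), and it also had the lowest total count of all oocytes. Taf1 was highest in wt5 (46.7 CPM against 33.1, 0.868). Among mutant oocytes, D7 was high for Hdac8 (8.97 CPM against 3.50, 0.808) and D2 for Brd8 (95.6 CPM against 44.9, 0.768). The cause of these gaps was not tested.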

How the results depend on the processing

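Of all members called, Hdac3, Sirt4, Kat7, Ncoa2, Brd1 and Taf1 were called with each oocyte left out in turn, Hat1 lost its call in 7 of the 10 cases, Brd8 in 6, Brdt in 5 and Ep300 in 4. Members called higher numbered 5 with limma voom, 1 with filterByExpr and 2 to 5 with 1 oocyte left out (5 without C3, when Hdac4, Kat2a and Brpf1 joined). Members called lower numbered 5 without a filter and 4 (without D1) to 7 with 1 oocyte left out, 5 without wt3 or wt4. Partner genes called numbered 15 without D1, 17 without D2 and up to 33 (without C3) with other oocytes left out. With libraries taken separately and the replicate number as a block, 966 genes, 1 member higher, 2 members lower and 8 partner genes were called. The numbers do not pair the libraries (correlations of deviations 0.0751, 0.0984 and -0.0902), so this block has no meaning beyond a shared number. With C3 alone as control, 3 genes, 0 members higher, 0 members lower and 0 partner genes were called (15 of 85 partner genes at an unadjusted p under 0.05), Hat1 was at 0.04, Hdac4 at -1.10 and Hdac1 at 1.72 on the log2 scale. Signs of uncalled genes also turned under library totals (Hdac9 -0.18, Kat6b -0.13, Brd2 -0.21), under the block (Sirt1 0.04, Hdac1 0.07) and, for Brd2, with libraries taken separately (-0.30), 1 library per oocyte (-0.09), C3 alone (-1.11), GC and length trends removed (-0.45) and 1 oocyte left out (-0.13 to 0.59). The summed level of the members per kb in wt/wt oocytes was 445 CPM, and 926 with exon lengths capped at 3 kb. With sums scaled by total counts, the mutant minus wt/wt difference in summed level was 43.0 in place of 71.5 for the erasers, -1052 in place of -602 for the writers and -1324 in place of -700.0 for the readers. Depth sets the lowest level seen, since 3 counts stand for 0.456 CPM in D4 to 1.83 CPM in D2, and a lower level could not be told from 0 there.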
